A study of Mus musculus with 8 samples.

Results

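To examine what a JAK inhibitor changes in mouse embryonic stem cells (mESCs) that already carry inhibitors of GSK3 and MEK, the library of cells grown in 2i plus the JAK inhibitor (2iJ) was compared with the library of cells grown in 2i, both labelled day 5. These are 2 of the 8 libraries of the series, chosen by their treatment labels, with 1 library on each side. Both are poly-A RNA-seq libraries of the R1 line, an mESC line, cultured in serum-containing medium without feeder cells. The agents of 2i are CHIR99021 at 3 uM, which inhibits GSK3, and PD0325901 at 1 uM, which inhibits MEK. The 2iJ culture also received the JAK inhibitor at 2 uM. Leukemia inhibitory factor (LIF) is not among the supplements listed for either culture. The series text describes 2 days of culture, whereas the labels of both samples give day 5, and the labels are followed here. For reference, 3 further R1 libraries are given, from days 2, 5 and 11 of 2iJ+B-A, which is 2iJ with BMP4 at 10 ng/ml and an ALK5 inhibitor at 10 uM. All 3 hold the JAK inhibitor, but 2 of them differ from the compared pair in day as well as in treatment. A library of sorted Cdx2-GFP-positive cells from 2iJ+B-A on day 2 also held the inhibitor and is not among these R1 libraries. Unless it is named, that library is left out of the comparisons below.

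LIF binds a receptor made of Lifr and gp130 (the product of Il6st), which activates JAK kinases, and these phosphorylate the transcription factor STAT3. STAT3 then raises genes of its own negative feedback, such as Socs3, and in mESCs several genes of the naive pluripotency network, among them Tfcp2l1 and Klf4. In 2i, inhibition of GSK3 and of MEK sustains much of the same network without LIF.

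The 2 libraries held 28147186 (2i) and 25695785 (2iJ) counts of read pairs in genes, and 15309 and 15285 genes had at least 10 counts. Unmapped pairs made up 3.85% and 3.13% of all pairs, and counts from mitochondrial genes 2.08% and 1.64% of gene counts. Levels are counts per 1000000 gene counts (CPM), scaled by the trimmed mean of M values (TMM), and are not divided by gene length, so they are compared between libraries and not between genes. A ratio is given as the log2 of 2iJ over 2i, with a 95% interval that covers counting error only. With 1 library a side the spread between cultures is unknown, so no test was made, and no value below separates the inhibitor from any other difference between the 2 cultures. In bulk RNA, fewer cells that express a gene and less of its RNA per cell cannot be told apart.

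Of 37620 genes, 12086 had at least 100 counts in the pair together and are called filtered genes. Their median log2 ratio was 0.002. At a 1.5-fold difference, 370 filtered genes (3.06%) were lower in 2iJ and 540 (4.47%) were higher. At a 2-fold difference, 72 (0.596%) were lower and 127 (1.05%) were higher. For 3185 filtered genes (26.4%) the counting interval lay wholly below a ratio of 1 and for 3180 (26.3%) wholly above it, so counting error alone is narrow at this depth and a gene outside it is no rarity. The root mean square log2 difference of the pair was 0.337. Between the 3 2iJ+B-A libraries, which differ in day, it was 0.517 to 0.764, and 15.3% to 26.6% of genes were past 1.5-fold, against 7.53% for 2iJ and 2i. Of the filtered genes, 2948 (24.4%) had their highest level of the 5 R1 stem cell libraries in 2i, and 2603 (21.5%) their lowest.

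**Figure D1:**
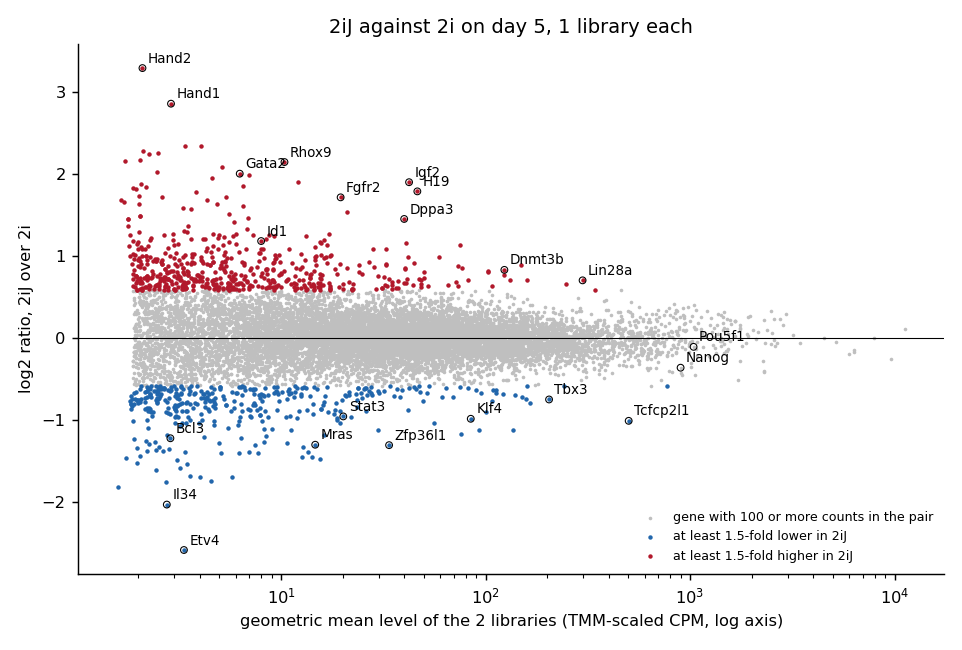
Each point is 1 of 12086 filtered genes. The horizontal axis is its geometric mean level in the 2i and 2iJ libraries (TMM-scaled CPM, log axis) and the vertical axis its log2 ratio, 2iJ over 2i. Blue points are the 370 genes at least 1.5-fold lower and red points the 540 genes at least 1.5-fold higher in 2iJ, and circles mark named genes, from Etv4 at -2.59 to Hand2 at 3.30.

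Socs3, the suppressor of cytokine signalling that STAT3 induces and that inhibits JAK in turn, was lower in 2iJ. It had 65 counts in 2i and 31 in 2iJ, levels of 2.39 and 1.24 CPM, and a log2 ratio of -0.94 (interval -1.62 to -0.31). With 96 counts in the pair it stood just under the 100-count filter. The level in 2iJ was the lowest of the 5 libraries, and the 3 2iJ+B-A libraries, which hold the same inhibitor, had 3.06, 3.67 and 3.36 CPM on days 2, 5 and 11, above 2i. Lower Socs3 was therefore a property of the 2iJ library and not of every library with the inhibitor.

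The promoters of STAT3-linked genes were searched for TTCNNNGAA, the core of a STAT binding site, which reads the same on both strands. The windows were RefSeq promoters of build GRCm38.p6, 250 bases before to 50 after the start. Of 31 genes with a window among the STAT3-linked genes described below, 6 (19.4%) held a match, against 9.55% of all 27025 genes with a window. The 6 genes were Bcl6, Cish, Esrrb, Icam1, Sgk1 and Socs3. Of these, Cish, Esrrb, Icam1 and Sgk1 lay within 1.5-fold, with log2 ratios of 0.31, -0.09, -0.16 and -0.37. Among interferon-stimulated genes, also described below, 9 of 39 with a window (23.1%) held a match. The match was thus not particular to the STAT3-linked genes, and differences between these shares were not tested. Bcl6 had a further window, whose stretch (chr16:23981343-23981471, minus strand) held 3 matches and is not printed. Stretches before the start are printed for Socs3 and Bcl6, lower in 2iJ, and for Emp1, one of the lowest genes of the comparison, with the matches in capitals.
Socs3 (chr11:117969482-117969550, minus strand): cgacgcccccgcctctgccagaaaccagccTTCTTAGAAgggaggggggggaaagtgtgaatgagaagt
Bcl6 (chr16:23988942-23988990, minus strand): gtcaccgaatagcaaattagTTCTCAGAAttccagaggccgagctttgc
Emp1 (chr6:135362791-135362930, plus strand): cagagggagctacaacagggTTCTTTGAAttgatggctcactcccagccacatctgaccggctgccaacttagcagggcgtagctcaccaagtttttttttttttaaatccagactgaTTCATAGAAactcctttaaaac
A match shows these letters and no binding. The windows of Klf4, Tfcp2l1, Stat3, Bcl3 and Mras held no match, which says only that the letters are not within them.

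Stat3 itself, which is also a target of STAT3, was lower in 2iJ. It stood at 28.1 CPM in 2i and 14.5 CPM in 2iJ, a log2 ratio of -0.96 (interval -1.14 to -0.78). All 4 R1 libraries with the JAK inhibitor were below 2i, since the 2iJ+B-A libraries had 11.7, 14.5 and 14.9 CPM. Bcl3, an atypical I-kappa-B protein that STAT3 induces, had 4.41 CPM in 2i and 1.88 CPM in 2iJ (log2 ratio -1.22). It had between 1.06 and 1.47 CPM in 2iJ+B-A, again below 2i in every R1 library with the inhibitor. Bcl6, a transcriptional repressor, had 4.27 CPM in 2i and 2.44 CPM in 2iJ (-0.80), but 5.05 to 5.80 CPM in 2iJ+B-A, so only 2iJ lay below 2i.

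Of the 26 STAT3 feedback and immediate target genes listed, 21 were filtered genes. Of these, 3 were at least 1.5-fold lower (Bcl3, Stat3 and Bcl6), 1 was higher and 17 lay within 1.5-fold, with a median log2 ratio of -0.14. The shares of all filtered genes were 3.06% lower and 4.47% higher, with the median at 0.002. They are the background for the counts of every list below. Cebpb, a bZIP transcription factor, was the member that was higher, with 1.51 CPM in 2i and 2.84 CPM in 2iJ (0.90, 41 and 71 counts). With both strands counted it dropped under the filter and no member was higher. Other feedback genes went the opposite way from Socs3 or differed little. The log2 ratio was 0.24 for Socs2, 0.33 for Socs1 (31 and 36 counts, interval -0.40 to 1.08) and 0.31 for Cish (34 and 39 counts, interval -0.39 to 1.02). Pim1, a kinase gene that STAT3 and STAT5 induce, had 110 CPM in 2i and 122 CPM in 2iJ (0.14), and Pim3 had a ratio of 0.30. Il6st, which encodes gp130, was at 91.2 CPM in 2i and 125 CPM in 2iJ (0.46). Immediate-early members were split, with Fos at -0.46 (interval -0.87 to -0.06), Myc at -0.27 and Junb at 0.26 (interval -0.20 to 0.72). The anti-apoptotic gene Mcl1 was level in both libraries (-0.03).

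The mESC genes listed as LIF/STAT3 targets showed more members on the lower side. Of 14 filtered members, 7 (Tcfcp2l1, Klf4, Klf5, Tbx3, Mras, Ly6a and Stat3) were at least 1.5-fold lower in 2iJ, none was higher, and the median was -0.48. Of all filtered genes, 3.06% were lower and 4.47% higher. Klf5 stood at the edge, and 6 members were lower with plain CPM or with both strands counted. Tcfcp2l1 is the name in this annotation of Tfcp2l1, a naive pluripotency factor downstream of STAT3. It had 712 CPM in 2i and 353 CPM in 2iJ, a log2 ratio of -1.01 (interval -1.05 to -0.98), and 261, 322 and 247 CPM in 2iJ+B-A. Every R1 library with the inhibitor was thus at or below 353 CPM. The sorted Cdx2-GFP-positive library, which also held the inhibitor, had 683 CPM. The gene lies on chromosome 1, whose genes had a median log2 ratio of -0.11.

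Klf4, the Kruppel-like factor, was at 119 CPM in 2i and 60.1 CPM in 2iJ (-0.99, interval -1.08 to -0.90). The 2iJ+B-A libraries had 97.5, 142 and 132 CPM, which overlapped the level of 2i. Tbx3, a T-box factor of the naive network, followed the same order, with 265 CPM in 2i, 158 CPM in 2iJ (-0.75) and 210, 351 and 293 CPM in 2iJ+B-A. Klf5, in contrast, was below 2i in every R1 library with the inhibitor. It had 58.0 CPM in 2i, 38.5 CPM in 2iJ (-0.59) and 15.2 to 21.5 CPM in 2iJ+B-A. The sorted Cdx2-GFP-positive library, which also held the inhibitor, had 156 CPM of Klf5, above 2i. Mras, a RAS family GTPase gene, had 23.1 CPM in 2i and 9.34 CPM in 2iJ (-1.30), and Ly6a, which encodes the surface protein Sca-1, had 25.0 and 13.6 CPM (-0.87). In 2iJ+B-A, Mras lay on both sides of 2i, at 10.1 to 30.9 CPM, and Ly6a above it, at 25.6 to 86.5 CPM.

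The members of the target list that lay within 1.5-fold included Esrrb, an orphan nuclear receptor of the naive network, at 438 CPM in 2i and 410 CPM in 2iJ (-0.09). Sall4 had a ratio of 0.32, Pramel7 0.42 and Dppa5a 0.07. Lower levels in 2iJ were thus not shared by the whole list.

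**Figure D2:**
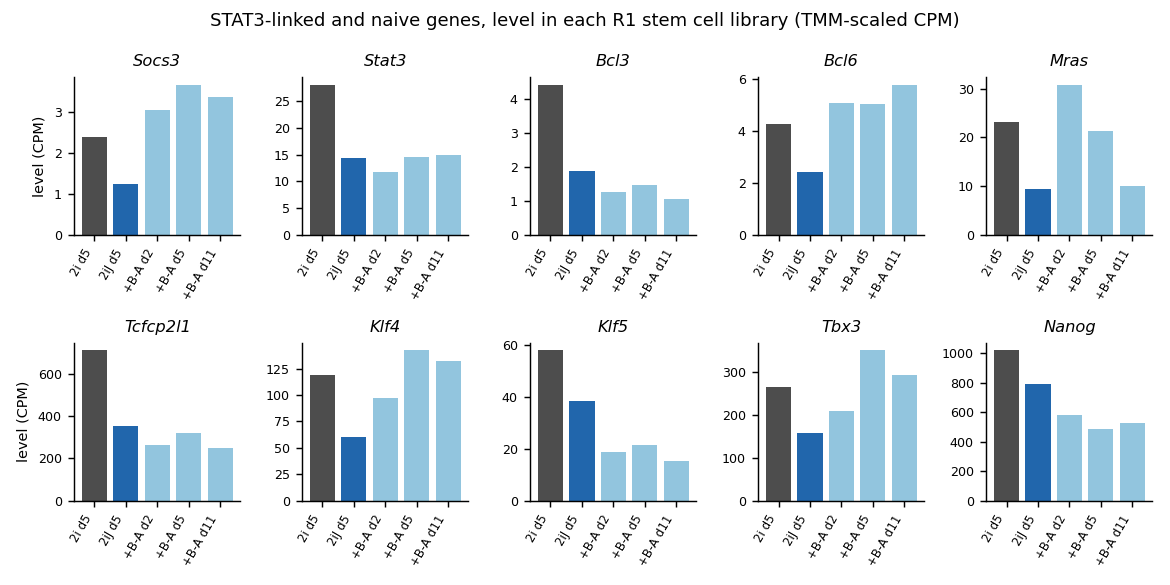
Bars give the level of 10 STAT3-linked and naive genes in each of the 5 R1 stem cell libraries (TMM-scaled CPM, linear axes that start at 0, 1 library a bar and so no error bars). The dark bar is 2i on day 5, the blue bar 2iJ on day 5 and the pale bars 2iJ+B-A on days 2, 5 and 11. Stat3, Bcl3, Tcfcp2l1, Klf5 and Nanog were highest in 2i, whereas Socs3, Bcl6, Klf4 and Tbx3 were lowest in 2iJ with 2iJ+B-A on day 5 above 2i.

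Of the 42 listed components of the LIF, JAK and STAT pathway, 32 were filtered genes. Of these, 2 were at least 1.5-fold lower, 2 higher and 28 within 1.5-fold (median -0.04), against 3.06% lower and 4.47% higher of all filtered genes. Beside Stat3, the lower member was Stat6, a mediator of interleukin-4 signalling, with 31.4 CPM in 2i and 20.4 CPM in 2iJ (-0.62). The higher members were the ligand genes Osm (oncostatin M, 2.72 and 4.35 CPM, 0.67) and Ctf1 (cardiotrophin 1, 2.72 and 4.15 CPM, 0.61), each with 74 counts in 2i. The receptor and kinase genes are given here with their values already known. Lifr had 70.4 and 71.3 CPM (0.02), Jak1 55.3 and 50.8 CPM (-0.12), Jak2 15.2 and 14.5 CPM (-0.07) and Tyk2 23.4 and 21.6 CPM (-0.12). The levels of the receptor and of the kinases were thus within 1.5-fold in both libraries, with Jak3 furthest below 0 among the kinases (-0.40).

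JAK kinases also transmit interferon signals. Of 25 filtered interferon-stimulated genes, 1 was at least 1.5-fold lower, 3 were higher and the median was 0.17. The share of all filtered genes was 3.06% lower, near that of this list, and 4.47% higher. The lower gene, Xaf1, which encodes a pro-apoptotic protein, was among the 15 lowest of the comparison, with 7.28 CPM in 2i and 2.24 CPM in 2iJ (-1.69, interval -2.16 to -1.27). The higher genes were Ifitm1 (94.1 and 161 CPM, 0.77), the GTPase gene Irgm1 (3.68 and 7.63 CPM, 1.05) and Parp14 (1.69 and 3.27 CPM, 0.95). Another 24 listed genes were below the filter, so the interferon response was thinly measured here. Of 10 filtered genes of MHC class I and antigen processing, Tap1, a peptide transporter, was higher (1.88 and 3.63 CPM, 0.95) and none was lower, with a median of 0.01.

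The core pluripotency factors differed little. Of 20 listed, all were filtered genes, none was at least 1.5-fold lower, 1 was higher and the median was -0.04. Nanog, the homeobox factor, had 27719 counts in 2i and 19860 in 2iJ, which gave 1019 and 793 CPM. Among the 12086 filtered genes this ratio ranked 1030 from the lowest. Its level was 581, 487 and 529 CPM in 2iJ+B-A, so 2i was the highest of the 5 libraries. Pou5f1, which encodes Oct4, was at 1080 CPM in 2i and 1002 CPM in 2iJ, and its log2 ratio moved from -0.11 to 0.02 when both strands were counted. Sox2 was at 693 and 660 CPM. The higher member was Lin28a, an inhibitor of let-7 maturation, with 234 CPM in 2i and 381 CPM in 2iJ (0.70, interval 0.66 to 0.75). It was lowest in 2i of the 5 libraries, with 477, 495 and 625 CPM in 2iJ+B-A.

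The naive factors as a group lay lower. Of 23 filtered members, 4 (Tcfcp2l1, Klf4, Tbx3 and Klf5) were at least 1.5-fold lower, 1 was higher, and 16 were below 0, with a median of -0.32. All 4 are also on the LIF/STAT3 target list and were counted there, so no further naive gene was lower past 1.5-fold. Without Klf5, which was lost with plain CPM and with both strands counted, 3 were lower. In 10 of the 23, 2i was the highest of the 5 libraries, and in none was it the lowest (1 with plain CPM or without day 11), beside 24.4% and 21.5% of all filtered genes. Here too 3 of the 5 libraries also received BMP4 and the ALK5 inhibitor. Zfp42 (Rex1), named with its value known, had 864 CPM in 2i and 605 CPM in 2iJ (-0.52). Dppa3, a maternal-effect gene that marks naive and germ cells, went the other way, with 24.2 CPM in 2i and 66.2 CPM in 2iJ (1.45, interval 1.32 to 1.59). Its level in 2iJ+B-A was 91.3 CPM on day 2 and 21.1 and 23.5 CPM on days 5 and 11, on both sides of 2i.

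Formative and primed genes, which become active as naive cells move toward the post-implantation epiblast, lay higher. Of 21 filtered members, 7 were at least 1.5-fold higher, 1 was lower, 18 were above 0 and the median was 0.42. Of all filtered genes, 4.47% were higher and 3.06% lower. Fgf5, Otx2 and Pou3f1, which head the list, were not among the members past 1.5-fold. Dusp6 (-0.46) and Lin28b (-0.12) were below 0. Dnmt3b, a de novo DNA methyltransferase, had 92.6 CPM in 2i and 165 CPM in 2iJ (0.83, interval 0.76 to 0.90). The 2iJ+B-A libraries had 83.3, 132 and 216 CPM, which overlapped 2i. The other higher members were Lef1 (15.9 and 25.2 CPM), Car4 (1.21 and 4.99 CPM), Cldn6 (11.6 and 22.8 CPM), Krt18, Fgf15 (3.02 and 4.55 CPM) and Sox11 (2.76 and 4.23 CPM). Several of these are not particular to the epiblast, since Krt18 is a keratin of simple epithelia and Cldn6 a claudin of embryonic epithelia. The lower member, Etv4, is described with the ERK genes.

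Of the 12 genes for writing and erasing DNA methylation, Dnmt3b was higher, Tet2 was lower (135 CPM in 2i and 86.8 CPM in 2iJ, -0.64) and 10 lay within 1.5-fold (median 0.07). Dnmt3a, the other de novo methyltransferase, had 238 and 334 CPM (0.49), and Dnmt1, the maintenance enzyme, 359 and 387 CPM (0.11).

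Trophectoderm and imprinted genes gave 6 of the 15 highest ratios of the comparison. Of the 30 trophectoderm genes listed, 22 were filtered genes, and 9 were at least 1.5-fold higher in 2iJ, 2 were lower and the median was 0.44. Of all filtered genes, 4.47% were higher and 3.06% lower. In 15 of the 22, 2i had the lowest level of the 5 libraries, against 21.5% of all filtered genes. Hand1, a basic helix-loop-helix factor of trophoblast giant cells and mesoderm, had 1.07 CPM in 2i (29 counts) and 7.87 CPM in 2iJ (197 counts), a log2 ratio of 2.86 (interval 2.32 to 3.50). The 2iJ+B-A libraries had 37.5, 95.8 and 8.84 CPM, above 2iJ on each day. Gata2, a zinc finger factor of trophoblast and blood, had 3.13 CPM in 2i and 12.6 CPM in 2iJ (2.01, interval 1.66 to 2.38), and 118 to 202 CPM in 2iJ+B-A. The level of Gata2 in 2iJ was thus between those of 2i and of every 2iJ+B-A library.

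Keratins of simple epithelia followed this order. Krt18 had 5.66 CPM in 2i and 13.5 CPM in 2iJ (1.25), and 160 to 431 CPM in 2iJ+B-A, while Krt8 had 9.19 and 16.6 CPM (0.85) and Krt19 2.61 and 4.07 CPM (0.64). Rhox9 and Rhox6, homeobox genes of the X-linked Rhox cluster, had 4.93 and 3.49 CPM in 2i and 21.9 and 13.9 CPM in 2iJ (2.15 and 1.99). They are close paralogs, so reads may be shared between them and their separate values are uncertain. The lower members were Tcfap2a (16.7 and 8.98 CPM, -0.90) and Tead4, the TEAD factor of the Hippo pathway in trophectoderm (17.7 and 10.8 CPM, -0.71). Cdx2, a defining factor of trophectoderm, had 3.27 and 4.23 CPM, and the interval of its log2 ratio included 0 (-0.05 to 0.79). Gata3 had 6.84 and 8.58 CPM (0.33), and Elf5 had 4 and 3 counts. The higher trophectoderm genes were therefore not joined by a measurable difference in all of the defining factors.

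BMP target genes lay on the same side although neither culture received BMP4. Of 12 filtered members, 4 were at least 1.5-fold higher and none was lower (median 0.36), against 4.47% and 3.06% of all filtered genes. Smad7 (-0.17) and Bmp4 (-0.425) were below 0. In 9 of the 12, 2i had the lowest level of the 5 libraries, against 21.5% of all filtered genes. As 3 of the 5 libraries received BMP4, their treatment favours this count. Id1 and Id2 encode inhibitors of basic helix-loop-helix factors and are direct SMAD targets. Id1 had 5.30 CPM in 2i and 12.1 CPM in 2iJ (1.18, interval 0.90 to 1.48), and 103 to 130 CPM in the libraries with BMP4. Id2 had 6.62 and 13.3 CPM (1.01), and 93.8 to 160 CPM with BMP4. Levels in 2iJ were far below those with BMP4, and above 2i. Hey1, a Notch and BMP target, had 4.30 CPM in 2i and 10.9 CPM in 2iJ (1.34) but 1.47 to 2.48 CPM in 2iJ+B-A, below 2i, so its order was another one.

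Imprinted genes, expressed from 1 parental allele, included some of the best-measured differences. Of 21 filtered members, 8 were at least 1.5-fold higher in 2iJ, 1 was lower and the median was 0.31. Of all filtered genes, 4.47% were higher and 3.06% lower. In 9 of the 21, 2i had the lowest level of the 5 libraries and in none the highest (1 without day 11). The shares of all filtered genes were 21.5% lowest and 24.4% highest in 2i. As 3 of the 5 libraries also received BMP4 and the ALK5 inhibitor, these counts do not refer to the JAK inhibitor alone. H19, a long non-coding RNA, and Igf2, a growth factor gene, are neighbours that share enhancers and are expressed from opposite alleles. H19 had 24.9 CPM in 2i (678 counts) and 86.3 CPM in 2iJ (2162 counts), a log2 ratio of 1.79 (interval 1.67 to 1.92). Igf2 had 21.9 and 81.8 CPM (1.90, interval 1.77 to 2.04). In 2iJ+B-A, H19 was at 2041 to 3388 CPM and Igf2 at 709 to 1712 CPM. Both neighbours were thus higher in 2iJ by similar factors, and higher still with BMP4 and the ALK5 inhibitor.

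Also on chromosome 7, the growth inhibitors Cdkn1c and Phlda2 had ratios of 1.25 (8.61 and 20.5 CPM) and 1.04 (5.44 and 11.2 CPM). Peg3, Usp29 and Ndn had ratios of 0.99, 0.86 and 0.71, and Peg10, a retrotransposon-derived placental gene on chromosome 6, 0.89 (109 and 202 CPM). Usp29 lies in the Peg3 domain, and its level in 2iJ+B-A (1.15 to 1.71 CPM) was below that in 2i (8.83 CPM), unlike the other 7. The lower member was Grb10, an adaptor that restrains insulin signalling, with 45.6 and 28.0 CPM (-0.71). Alleles were not separated in these counts.

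**Figure D3:**
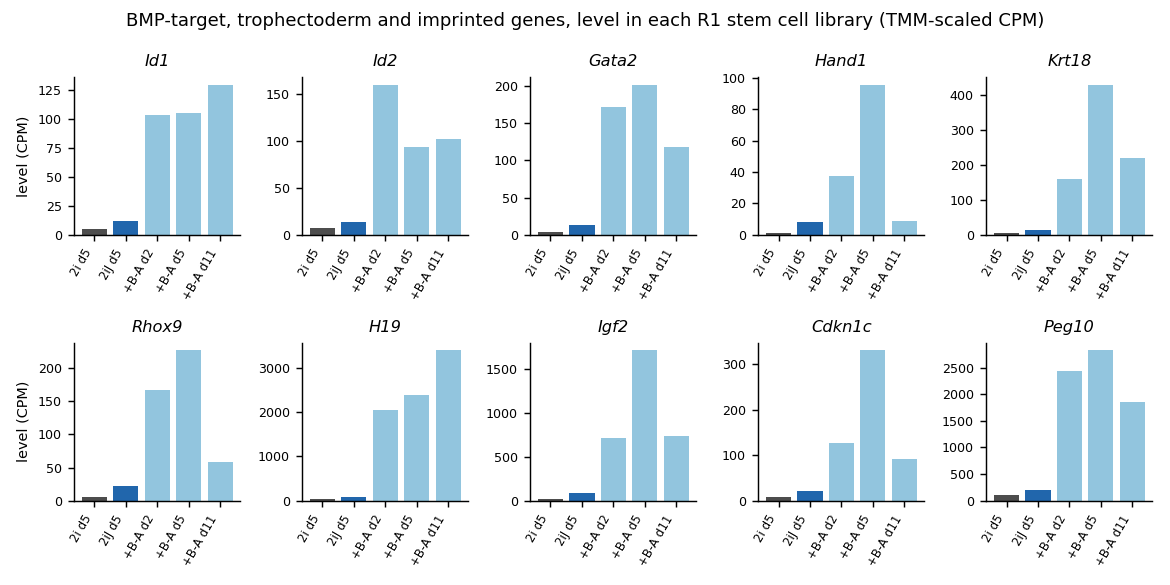
Bars give the level of 10 BMP-target, trophectoderm and imprinted genes in each of the 5 R1 stem cell libraries (TMM-scaled CPM, linear axes that start at 0, 1 library a bar and so no error bars). The dark bar is 2i on day 5, the blue bar 2iJ on day 5 and the pale bars 2iJ+B-A on days 2, 5 and 11. In every panel 2i was lowest and 2iJ next, below all 3 2iJ+B-A libraries, with the smallest gap for Hand1 (7.87 CPM in 2iJ and 8.84 CPM on day 11 of 2iJ+B-A). The 10 genes are a selection from these lists, so the shared order describes them only. Other members, among them Hey1, Usp29, Tcfap2a and Tead4, had other orders.

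Of the genes of other lineages, most were below the filter. Primitive endoderm genes had 14 filtered members of 27 listed, with 4 at least 1.5-fold higher, 1 lower and a median of 0.15. Of all filtered genes, 4.47% were higher and 3.06% lower. Gata4, a zinc finger factor of the lineage, had 2.39 and 5.55 CPM (1.21), and the receptor gene Pdgfra 2.57 and 5.27 CPM (1.03). Apoe had 197 and 310 CPM (0.66) and Srgn 1.99 and 3.11 CPM (0.65), while Fst, a binder of Activin, was lower with 3.13 and 1.56 CPM. Gata6, at 25 and 52 counts, had a ratio of 1.16 (interval 0.46 to 1.93), whereas Sox17 had 12 and 9 counts. The defining markers thus did not all lie on the same side.

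Primitive streak and mesoderm genes had 7 filtered members of 27, with 3 at least 1.5-fold higher and 1 lower. Wnt3 had 1.91 CPM in 2i and 5.79 CPM in 2iJ (1.59), and Kdr, a VEGF receptor, 2.17 and 5.63 CPM (1.37). Cdx1, a homeobox target of Wnt signalling, was lower with 12.8 and 5.31 CPM (-1.27). The median was -0.35 over the 7 filtered members but turned to 0.19 with members of at least 20 counts and to 0.60 with members of at least 1 count. T (Brachyury) had 37 and 35 counts, Mixl1 18 and 19, and Mesp1 2 and 1. Of 6 filtered neuroectoderm genes only Ncam1 was past 1.5-fold (19.8 and 10.4 CPM, -0.93). Pax6 had 22 and 58 counts and Nes 40.0 and 50.3 CPM.

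Genes of the germline and meiosis had 5 of 20 filtered members higher and 1 lower, with a median of 0.23. Of all filtered genes, 4.47% were higher and 3.06% lower. Beside Dppa3 the higher members were Dnd1 (12.3 and 24.5 CPM, 1.00), Nanos3 (5.08 and 8.07 CPM, 0.67), Rec8 (12.2 and 18.7 CPM, 0.62) and Ddx4 (14.1 and 21.4 CPM, 0.61). Dnd1, Nanos3 and Ddx4 encode RNA-binding proteins of germ cells and Rec8 a meiotic cohesin. Hormad1, a gene of meiotic chromosome axes, was lower (31.8 and 20.8 CPM, -0.62). Of 10 filtered genes of the two-cell-like state, none was past 1.5-fold. The first 3 listed, Zscan4c, Zscan4d and Zscan4f, had ratios of -0.11, -0.03 and 0.16, and reads may be shared among these paralogs.

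Both cultures held the MEK inhibitor, which blocks activation of ERK. Of 17 filtered ERK feedback genes, 4 were at least 1.5-fold lower in 2iJ and 3 higher, with a median of -0.01. Of all filtered genes, 3.06% were lower and 4.47% higher. Etv4, an ETS factor induced by FGF and ERK, had the lowest ratio of all 12086 filtered genes, with 8.28 CPM in 2i (225 counts) and 1.36 CPM in 2iJ (34 counts), 6.02-fold lower (log2 -2.59, interval -3.17 to -2.08). The 2iJ+B-A libraries had 0.81, 6.24 and 9.99 CPM, so its level ranged over both sides of 2i. Its relative Etv1 (13.5 and 8.78 CPM, -0.62) and the feedback inhibitors Spry2 (16.4 and 7.55 CPM, -1.12) and Spred1 (26.7 and 16.3 CPM, -0.71) were lower too. The phosphatase genes Dusp4 (3.86 and 9.30 CPM, 1.27) and Dusp5 (8.39 and 13.7 CPM, 0.71) and the inhibitor gene Spry1 (5.30 and 8.03 CPM, 0.60) were higher. Within 1.5-fold, Dusp6 and Fos were below 0 (both -0.46, with intervals that left out 0). Spry4, under the filter, had 40 counts in 2i and 10 in 2iJ. Of the 17 filtered members, 9 were below 0 and 8 above it. The filtered feedback genes of the ERK pathway thus lay on both sides of 0.

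Both cultures likewise held the GSK3 inhibitor. Of 16 filtered Wnt targets, 1 was at least 1.5-fold lower (Cdx1) and 3 were higher, namely Lef1 (0.66), Nkd1 (2.02 and 3.35 CPM, 0.73) and Tnfrsf19 (32.2 and 52.9 CPM, 0.72), with a median of -0.07. Of 12 filtered Nodal and Activin targets, only Foxh1, a cofactor of SMAD2 and SMAD3, was past 1.5-fold (27.7 and 44.3 CPM, 0.68). Nodal had 80.4 and 108 CPM (0.43), Lefty1 146 and 194 CPM (0.41) and Lefty2 414 and 324 CPM (-0.35).

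STAT3 is also linked to the output of the mitochondrial genome. All 7 filtered mitochondrially encoded subunits were below 0, from -0.58 to -0.26 with a median of -0.45. None was past 1.5-fold, although 1 was with DESeq2 size factors or with TMM over the pair. The first 3 were mt-Nd1 (2639 and 1992 CPM, -0.41), mt-Nd2 (1238 and 904 CPM, -0.45) and mt-Nd4 (789 and 527 CPM, -0.58). In 3 of the 7, 2i was the highest of the 5 libraries, against 24.4% of all filtered genes. The mitochondrial share of gene counts was 2.08% in 2i and 1.64% in 2iJ, the lowest of the 5, with 1.93%, 2.05% and 2.17% in the 2iJ+B-A libraries of days 2, 5 and 11. The 11 filtered mitochondrial genes include 2 rRNA and 2 tRNA genes. Their median log2 ratio was -0.48 in 2iJ, and -0.25, -0.20 and -0.11 in 2iJ+B-A on these days over the same 2i library. By this median they were below 2i in all 4 R1 libraries with the inhibitor, by most in 2iJ. The subunits did not all share this order. mt-Nd1, mt-Nd6 and mt-Co1 were highest in 2i. In 2iJ+B-A, mt-Nd2, mt-Nd4 and mt-Nd5 lay on both sides of 2i. mt-Cytb had 2661 CPM in 2i but 3015, 3437 and 3552 CPM in 2iJ+B-A. These transcripts share 1 genome and library, and are not independent measurements.

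Other programmes differed less. Of 29 filtered glycolysis and hypoxia genes none was past 1.5-fold (median 0.002), with Slc2a1, Slc2a3 and Hk1 at 0.02, -0.16 and 0.08. None of 22 filtered cholesterol synthesis genes was past 1.5-fold (1 was with DESeq2 size factors or with TMM over the pair), with 16 of them below 0 and a median of -0.17. Mvd and Mvk, which encode enzymes of the mevalonate steps, had ratios of 0.13 and 0.06. Of 28 filtered cell cycle genes, the CDK inhibitor genes Cdkn1c (1.25) and Cdkn2b (2.10 and 3.67 CPM, 0.80) were higher and none was lower (median -0.06). Of 23 filtered p53 and integrated stress response genes, Ddit3 (-0.76), Chac1 (-0.65) and Nupr1 (8.09 and 3.75 CPM, -1.10) were lower and Cebpb was higher, except with both strands counted (median 0.01). Of 16 filtered heat-shock and immediate-early genes, Jun was higher (5.59 and 8.62 CPM, 0.62) and none was lower (median -0.04).

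**Figure D4:**
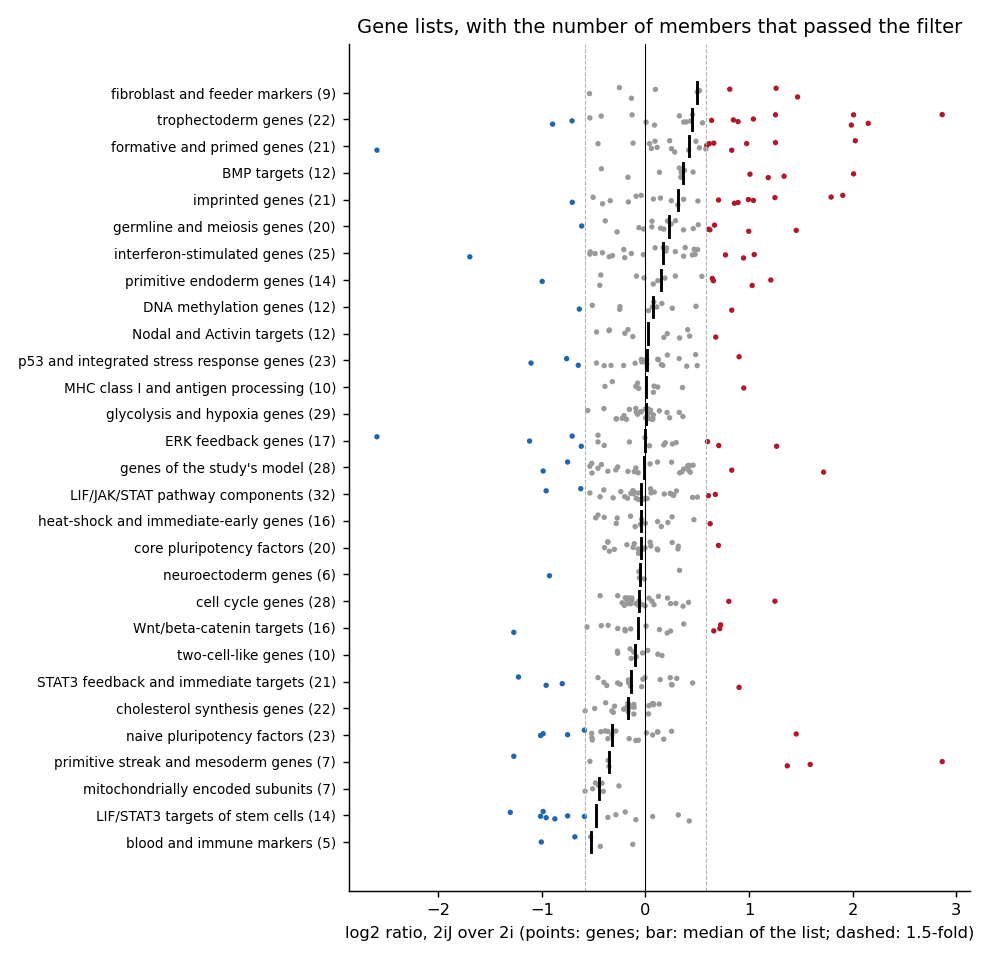
Each row is a gene list, with the number of its filtered members in parentheses. Each point is a gene at its log2 ratio, 2iJ over 2i (horizontal axis), blue where at least 1.5-fold lower, red where at least 1.5-fold higher and grey otherwise. The black bar is the median of the list, dashed lines mark 1.5-fold, and the lists are sorted by their medians, from -0.53 for blood and immune markers and -0.48 for LIF/STAT3 targets to 0.44 for trophectoderm genes and 0.50 for fibroblast and feeder markers. Several lists share genes.

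The study built a signalling model of pluripotency, and a list of 32 genes was drawn up here around it, which is not the exact gene set of the model. Of the 28 that were filtered genes, Klf4 and Tbx3 were at least 1.5-fold lower and Dnmt3b and Fgfr2 were higher, with a median of -0.01. Fgfr2, a receptor for FGFs, had 10.8 CPM in 2i and 35.5 CPM in 2iJ (1.72, interval 1.53 to 1.92), and 15.1 to 25.7 CPM in 2iJ+B-A. It was therefore above 2i in all 4 R1 libraries with the inhibitor, with the highest level in 2iJ.

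The 15 genes with the lowest and the 15 with the highest ratios, by the bound of the interval nearest to 1, were taken among coding and long non-coding genes with at least 5 CPM in the higher library, so their ratios are a description. The lowest included Pcolce, an enhancer of procollagen processing (21.9 and 8.30 CPM, -1.40). Calb2, which encodes calretinin, had 8.35 and 2.48 CPM (-1.75), and the calcium pump gene Atp2a3 had 6.47 and 2.00 CPM (-1.69). Il34, a ligand of the CSF1 receptor, had the second lowest bound, with 5.63 and 1.36 CPM (-2.04, interval -2.63 to -1.51). Pcolce, Calb2, Atp2a3 and Il34 had their highest level of the 5 libraries in 2i.

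Among the best measured of the 15 was Zfp36l1, whose product promotes decay of mRNAs with AU-rich elements. It had 53.1 CPM in 2i and 21.4 CPM in 2iJ (-1.31, interval -1.46 to -1.17), though 16.1, 38.5 and 46.9 CPM in 2iJ+B-A. Its ratio was -0.93 when both strands were counted. Gm7325, which encodes the fusion protein myomixer, had 21.0 and 7.67 CPM (-1.45) and at most 4.22 CPM in 2iJ+B-A. Emp1, an epithelial membrane protein gene, had 10.4 and 3.19 CPM (-1.70), and 4.44 to 11.1 CPM in 2iJ+B-A. Npr3, the clearance receptor of natriuretic peptides, had 20.4 and 8.07 CPM (-1.34) but 25.4 to 59.2 CPM in 2iJ+B-A. Further members of the 15 were Kbtbd11 (-1.48), Sema5b (-1.41), Lonrf2 (-1.59), Gm13580 (-1.76), Xaf1 and Etv4. Of the 15 genes, 10 were highest in 2i of the 5 libraries, a count that the choice of these genes favours.

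The 15 genes with the highest ratios were led by Hand2, a relative of Hand1, with 18 counts in 2i and 167 in 2iJ (0.66 and 6.67 CPM, 3.30, interval 2.63 to 4.12). It had 2.73, 8.26 and 0.06 CPM in 2iJ+B-A, so that its level on day 11 was under the 3-count floor of 0.10 CPM. Rgs5, a regulator of G protein signalling, had 1.80 and 9.22 CPM (2.34), the LIM homeobox gene Lmx1b 1.51 and 7.71 CPM (2.34) and the pro-apoptotic gene Bik 1.14 and 5.55 CPM (2.27). Nrp1, a co-receptor of semaphorins and VEGF, had 2.50 and 10.7 CPM (2.08), and Thsd4 2.32 and 9.06 CPM (1.96). Most of these were rare transcripts in 2i, where 10 of the 15 had fewer than 100 counts.

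Pdzk1, a PDZ scaffold gene, had 6.25 CPM in 2i and 23.4 CPM in 2iJ (1.90) but 6.12 to 13.2 CPM in 2iJ+B-A, and Ccno, an atypical cyclin gene, 3.42 and 12.4 CPM (1.86). The remainder, Rhox9, Rhox6, Igf2, H19, Gata2, Hand1 and Fgfr2, are described above. In 12 of the 15, 2i was the lowest of the 5 libraries, which their choice likewise favours. Of the 15 highest genes 10 had a promoter window, and none held TTCNNNGAA, and 2 of the 9 of the 15 lowest with a window did. With 9.55% over all genes with a window, sets of this size cannot be told apart from the background or from each other.

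A shift by chromosome was also measured. The 687 filtered genes of chromosome 1 had a median log2 ratio of -0.11, and 67.1% of them were below 0. The median was below 0 in all 10 bins of 20 Mb along the chromosome, from -0.26 to -0.06. Chromosome 19 was next, with a median of -0.08 over 419 genes, and the other autosomes and the X chromosome lay between -0.03 and 0.06. In 2iJ+B-A against the same 2i library, the median of chromosome 1 was -0.09, -0.16 and -0.18 on days 2, 5 and 11, whereas between the 2iJ+B-A libraries it was -0.05 (day 5 over day 2) and -0.03 (day 11 over day 5). The comparisons over 2i share the 2i library, so they are not independent of each other. Medians over 2i were also below 0 in 2iJ and in each 2iJ+B-A library on chromosomes 3, 13, 14, 18 and 19. Tcfcp2l1, Lonrf2 and Rgs5 are on chromosome 1, and their ratios were far larger than its median. Without chromosome 1, 337 genes were lower and 512 higher at 1.5-fold.

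**Figure D5:**
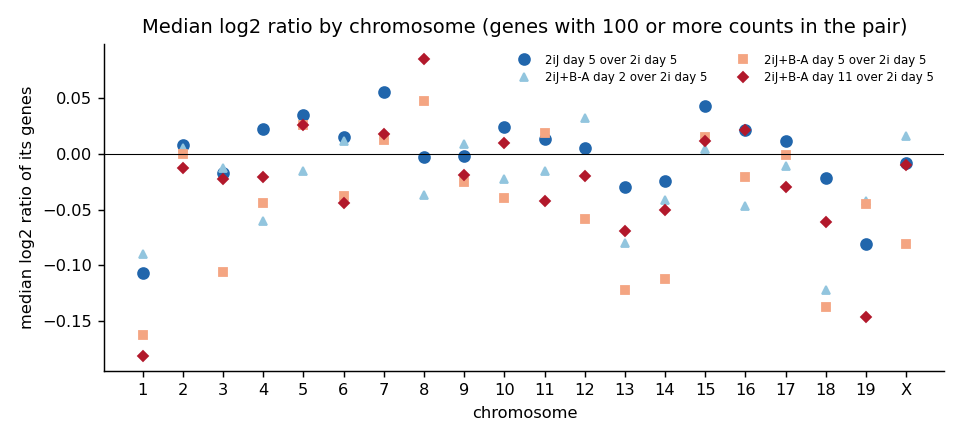
Points give the median log2 ratio of the filtered genes of each chromosome (vertical axis) for the autosomes and the X chromosome (horizontal axis). Blue circles are 2iJ over 2i, and triangles, squares and diamonds are 2iJ+B-A on days 2, 5 and 11 over the same 2i library, with 1 library a group. All 4 comparisons were below 0 on chromosome 1, from -0.18 to -0.09. They were also all below 0 on chromosomes 3, 13, 14, 18 and 19, and on day 2 chromosome 18 (-0.12) was below chromosome 1.

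Markers of fibroblasts and feeder cells and of blood and immune cells were also examined. Of 9 filtered fibroblast and feeder markers, 3 were at least 1.5-fold higher, namely the contractile genes Acta2 (4.71 and 11.3 CPM, 1.26) and Tagln (4.12 and 11.4 CPM, 1.47) and the matrix gene Fbln2 (2.24 and 3.95 CPM, 0.81), and none was lower. Of the 9, 6 were above 0 and 3 below 0. Those below 0 were Vim (105 and 71.9 CPM, -0.54), Fn1 (1599 and 1457 CPM, -0.135) and the defining marker Thy1. Thy1 had 7.80 and 6.55 CPM (-0.25, interval -0.555 to 0.049). Among the other defining markers, Dcn had 0 counts in both libraries, Lum 0 and 1, and Col3a1 1 and 7. Col1a1 had 1.80 and 2.56 CPM, with an interval of its log2 ratio that included 0 (-0.06 to 1.07). The part of such cells in the higher genes was not tested. Of 5 filtered blood and immune markers, Laptm5 (26.6 and 13.3 CPM, -1.01) and Cd68 (13.9 and 8.66 CPM, -0.68) were lower, but Ptprc, Lyz2 and Hbb-b1 had 0 counts in both libraries. At these depths 0 counts allow a level of up to 0.11 CPM in 2i and 0.12 CPM in 2iJ.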

How the data were processed

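RNA-seq of the R1 line was compared between 1 library of 2iJ and 1 of 2i, both labelled day 5, with 3 libraries of 2iJ+B-A set beside them. Groups and days came from the labels. Both compared libraries carry the same series mark and the same sample code letter. According to the methods and processing notes of the study, poly-A RNA was made into strand-specific libraries and sequenced as read pairs of 126 bases, reads were trimmed with cutadapt at a quality of 20, and pairs were aligned with STAR 2.4.2a to the NCBIM37 mouse genome. The authors deposited unnormalised gene counts from STAR (read pairs), both without regard to strand and for each strand. Pairs in no feature were left out. The study adjusts its expression values for a difference between 2 days of experiments, but the counts used here hold no such adjustment. The annotation release used is not given in the sources used here, and gene symbols, types and coordinates (NCBIM37, 1-based) came from a GENCODE annotation of this build, which named 37205 of 37620 genes. The shares of no-feature pairs among uniquely aligned pairs were 16.4% in 2i and 14.9% in 2iJ.

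Reverse-strand counts were used. Libraries were scaled by TMM in edgeR 4.0.16 (R 4.3.3) over the 16961 genes that reached 10 counts in 2 or more of the 8 libraries. With Python 3.11.15 and numpy 2.4.6, the log2 ratio was taken after adding 0.5 to each count, and its 95% interval was the exact binomial interval of the split of a gene's counts between both libraries (scipy 1.17.1), which covers counting error only and was tested on simulated data. Genes with fewer than 100 counts in the pair were left out of counts and medians, which kept 12086 genes. No test was run, since each side had 1 library. A count of 0 was taken to allow up to 3 counts. For each library the levels rest on 24532587 to 31453888 gene counts.

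The named genes are Socs3, Nanog, Pou5f1 and Sox2, the 15 lowest and 15 highest coding or long non-coding genes past 1.5-fold with at least 5 CPM in the higher library (ranked by the interval bound nearest to 1), and, in each of 29 gene lists, members past 1.5-fold or, where fewer than 3 were, the first 3 filtered members listed. All members of both STAT3 lists and markers of cell types could also be named. Some genes that this rule names are not reported here. The comparison, its members and the lists were chosen with earlier results of these data known. Alternatives were other scalings (DESeq2 1.42.0 size factors, plain CPM, TMM over the pair), counts of both strands, filters of 20 counts or 1 count, a 2-fold difference, 2 counts added, and, for the order of the 5 libraries, leaving out day 11. Counts without chromosome 1 and for protein-coding genes alone were chosen after seeing the data.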

Additional observations from a re-analysis of the deposited data

How the results depend on the processing

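The filter and the fold set the number of genes counted. At 1.5-fold, 926 genes were lower and 1317 higher among genes with at least 20 counts in the pair, and 3504 and 4390 among genes with at least 1 count, where counting error is wide. At 2-fold they were 72 and 127. The root mean square log2 difference was 0.481 and 1.03 with these filters. The median of the primitive streak and mesoderm list turned from -0.35 to 0.194 and 0.604, as rarely counted members entered. Under the other scalings, both strands, 2 added counts, no chromosome 1 or coding genes alone, between 314 and 389 genes were lower and between 509 and 570 higher. Of 680 log2 ratios of named genes under alternatives, 678 stayed within their counting intervals, and the other 2, for Pou5f1 (0.02) and Zfp36l1 (-0.93), came from counting both strands. Of 203 medians of lists, 194 moved by less than 0.1, 7 moved by more, and 2 turned. A turn was counted only for medians at least 0.1 from 0. Smaller medians could change sign without being counted as turned. That of the ERK feedback genes went from -0.005 to 0.008 with plain CPM. With plain CPM, 2i was highest of the 5 libraries for 2362 genes and lowest for 3097. No paired analysis was possible because each side held 1 library. With 1 culture a side, no alternative bears on the spread between cultures, and depth limits rare genes such as Socs3.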

Other observations

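Short non-coding genes lay mostly on the lower side. Of 41 filtered snoRNA genes, 9 were at least 1.5-fold lower in 2iJ and none was higher, with a median log2 ratio of -0.25. Of 12 filtered miRNA genes, 2 were lower and none higher (median -0.26), and of 5 genes of the type misc_RNA, 3 were lower and none higher (median -0.62). Beside them, 314 of 11516 protein-coding genes were lower and 509 higher, with a median of 0.005. Poly-A libraries capture such short RNAs poorly, and the share of no-feature pairs, 16.4% in 2i and 14.9% in 2iJ, moved the same way, while its part in these values was not tested. Among 170 filtered lincRNA genes 12 were lower and 13 higher (median -0.02).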
